A study of Saccharomyces cerevisiae with 312 samples.

Results

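The RRP6 query was 1 of many query mutations screened against a pool of barcoded budding yeast strains. It was chosen by the array titles, and its members are 2 of the 312 arrays of the series, 1 for each of 2 screens. In genetic interaction mapping a query mutation is crossed into the pool, haploid double mutants are selected, and the level of every barcode is compared with that in a population that received a reference mutation instead. Here the query population carried a TETO2 allele of RRP6 (YOR001W), in which a tetracycline-repressible promoter drives the gene. The labels do not say whether the promoter was shut off or how much Rrp6 was left, and they do not say whether the screens started from separate crosses or cultures. The p-values below take the spread of each strain from the screens of all queries, and that spread may therefore be technical. An SD given with n = 2 is that of the 2 screens of the query named. The p-value beside it does not come from that SD.

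All populations were mixtures of haploid strains derived from BY4742 and BY4741, grown for 18 generations under G418 and nourseothricin, with Cy3 marking the query and Cy5 its reference. The references of the 2 RRP6 screens differed. Screen 1 was compared with a population carrying the single deletion of YEL068C, a pool used by that array alone. Screen 2 was compared with a mix of several deletions, a pool used by 10 arrays. Those included the second screens of the other 3 TETO2 queries, RAT1, RNT1 and SSU72, and 6 arrays of deletion queries (AIR2, EDC2, NAM7 in 2 screens, PBY1 and TRF5). The first screens of RAT1, RNT1 and SSU72 shared a further mixed pool. RRP6 was therefore set against 0, against those 3 queries and against all other queries with at least 2 screens.

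Rrp6 is a nuclear 3′ to 5′ exoribonuclease that works on the RNA exosome, a barrel of catalytically inert subunits with the essential nuclease Dis3 at its base. The nuclear exosome trims the 3′ ends of ribosomal and small nucleolar RNA precursors and destroys cryptic transcripts and faulty messenger RNA. Its cofactors include Mpp6 and Lrp1 (Rrp47), which bind the complex, and TRAMP, in which the poly(A) polymerase Pap2 or Trf5, a zinc-knuckle protein Air1 or Air2 and the helicase Mtr4 tag RNA and feed it in. RRP6 can be deleted from yeast, so a query in this gene can be used to ask which other functions such cells need. How much Rrp6 was left here is not known.

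Each value is a log2 ratio of the query population over the reference, averaged over the array features of a strain and centred on the median of the array. A negative value means that the strain made up less of the query population. A strain is named here by the gene its barcode is assigned to, and the labels do not say how strains of essential genes were altered. The table gave values for 4012 strains in screen 1 and 4117 in screen 2. The SD over unlinked strains was 1.38 in screen 1 and 0.868 in screen 2. Across 3870 strains the screens correlated with Pearson's r of 0.602 and Spearman's rho of 0.399, a description over strains that share pools and arrays. The files hold ratios without intensities, and with 2 arrays their number limits the precision.

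The cross left its mark at the RRP6 locus on chromosome XV in both screens. Altered genes that lie close together rarely end up in 1 spore, so strains near the query are lost from its population. Strains 1 to 5 genes away had a median of -8.18 in screen 1 and -8.17 in screen 2. At 11 to 25 genes the medians were -3.90 and -3.86, at 51 to 75 genes -0.87 and -0.76, and at 76 to 100 genes -0.16 and -0.24. The barcode of the RRP6 strain itself stood at -5.64 and -7.88. Within 25 genes the median was negative on both arrays, and neither had its sign turned. The 140 strains within 100 genes were left out of every test below, with the values of a few given as a description, and a further 2.79% of all 4125 strains were measured in 1 screen only.

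**Figure D1:**
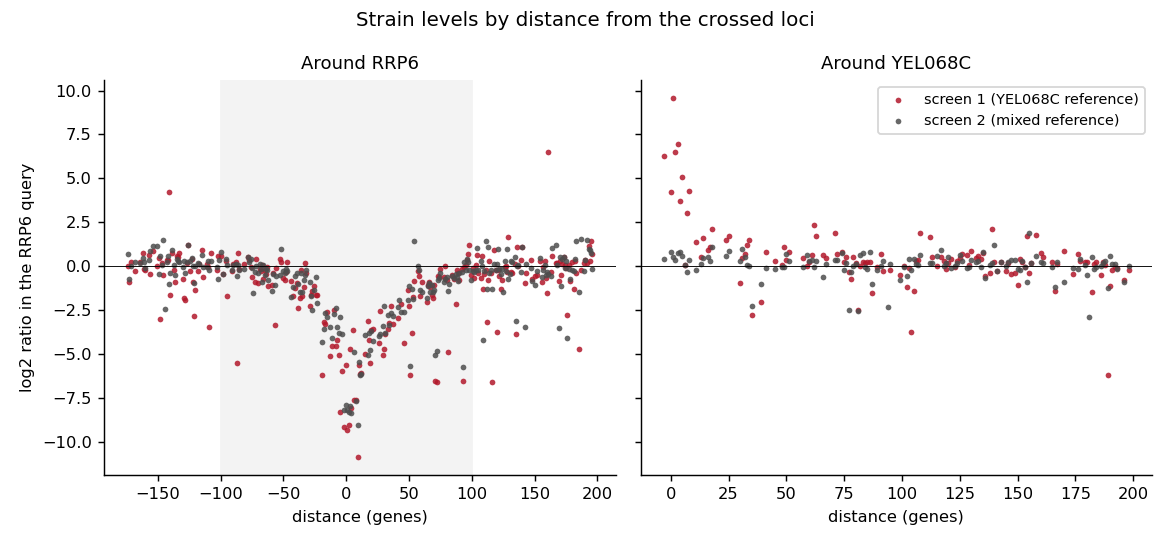
Log2 ratio of each strain (vertical axis) against its distance in genes from RRP6 (left, grey band for the strains left out) and from YEL068C (right), with screen 1 in red and screen 2 in dark grey. Around RRP6 both screens dip to medians near -8 within 5 genes, while around YEL068C the high values belong to screen 1, whose reference carried that deletion.

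In the RRP6 query 371 of 3870 strains were lower and 77 were higher (limma, adjusted p below 0.05 and a mean at least 1 away from 0), which is 9.59% and 1.99% of those tested. Over all queries 2.37% of pairs of strain and query were called lower, and the median query had 36 lower calls. With arrays scaled to 1 spread, 5.63% were lower and 0.31% higher. RRP6 ranked 8 of 140 by lower calls and 31 by higher calls. Of the 371 lower strains, 363 were below 0 in both screens and 64.96% were at or below -1 in both. The value of screen 1 was the more negative in 309 of them. The variance of each strain was shared over the screens of all queries, because 2 screens alone give a poor estimate of it. A fit on the 2 RRP6 screens by themselves called no strain in either direction after adjustment (limma, smallest adjusted p 0.0725), while 7.36% were lower and 1.34% higher at an unadjusted p under 0.05 and the same size.

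**Figure D2:**
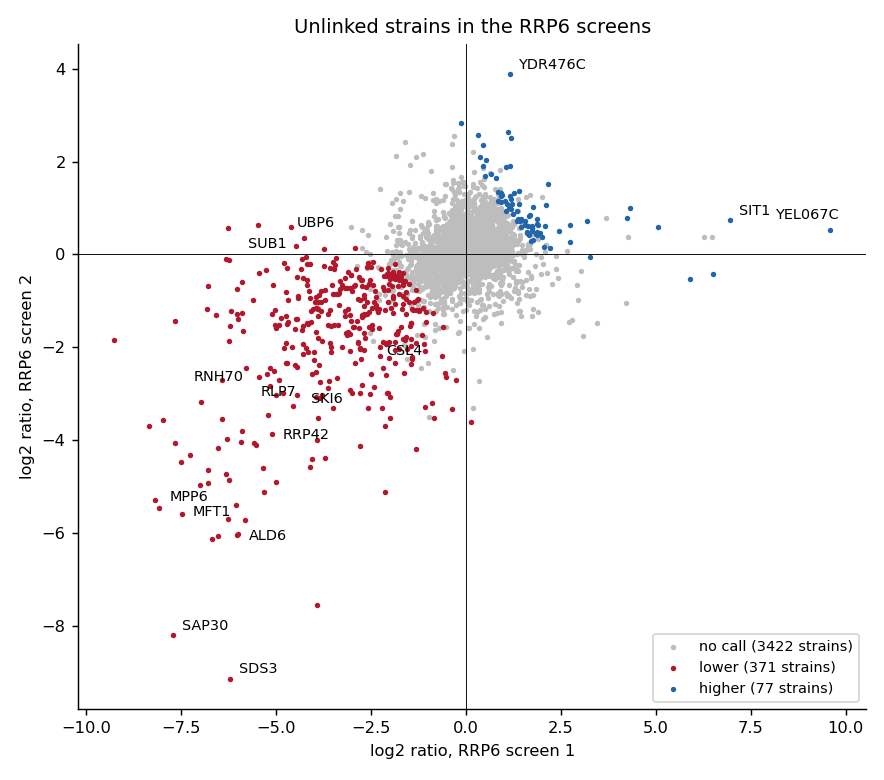
Log2 ratio of each unlinked strain in screen 1 (horizontal axis) and in screen 2 (vertical axis), coloured by the call against 0. MPP6, MFT1, SAP30, SDS3 and ALD6 lie far below 0 in both screens, whereas YEL067C and SIT1 are high in screen 1 and near 0 in screen 2.

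Tested strains of the nuclear exosome were depleted to unlike degrees, MPP6 the most and RRP4 the least. All 5 tested strains of the nuclear exosome list were lower, against 9.59% of all strains, with a median of -3.16 beside 0.04 over all strains tested. MPP6 (YNR024W, chromosome XIV), the exosome cofactor that binds RNA and docks Mtr4, stood at -8.07 and -5.46 in the RRP6 screens. In the other TETO2 screens it ran from -0.90 to 1.11, and on the 6 deletion-query arrays of the same pool from -0.09 to 0.83. The RRP6 values lay far below every one of these. Both features of the strain were low, at -8.84 and -7.31 in screen 1 and at -5.90 and -5.02 in screen 2. The mean was -6.77 ± 1.85 (SD, n = 2; limma adjusted p = 8.7e-62). MPP6 was called lower in 1 query, RRP6, and the next lowest mean was -0.73 in the SEM1 query.

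Subunits of the exosome barrel followed. RRP42, a subunit of the hexameric ring, stood at -5.10 and -3.86 in the RRP6 screens and between -0.97 and 0.76 in the other TETO2 screens (mean -4.48 ± 0.88, SD, n = 2; limma adjusted p = 2.52e-34). SKI6 (Rrp41), another ring subunit, stood at -3.60 and -2.72, against 0.09 to 0.92 in the other TETO2 screens. For both strains the 2 groups of screens did not overlap. The share of all strains without such an overlap is not given, here or below. SKI6 had a mean of -3.16 ± 0.63 (SD, n = 2; limma adjusted p = 4.44e-31) and was called lower in no other query. The cap subunit CSL4 stood at -1.81 and -1.70, with a mean of -1.76 ± 0.08. RRP4, the other cap subunit in the pool, stood at -1.29 and -0.98, with a mean of -1.13 ± 0.22 (SD, n = 2 each; limma adjusted p = 1.4e-07 for CSL4 and 0.00203 for RRP4). Both ring strains were below both cap strains in each screen, a difference between alleles of unknown strength that was not tested.

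All 5 strains had their lowest mean of all queries in RRP6, as had 49 of the 371 lower strains. Of the 4 that could be set against the other TETO2 queries, all were lower in RRP6, where 3.95% of 3418 strains were. The differences were -6.80 for MPP6, -4.34 for RRP42, -3.56 for SKI6 and -1.41 for RRP4 (limma adjusted p between 1.43e-30 and 0.000563 for the last 3, and 4.76e-56 for MPP6). Between the second screens alone, which share a reference pool, the differences were -5.78, -3.68, -3.22 and -1.18 in the same order, and that of RRP4 was not called (limma adjusted p = 0.152). In screen 2 alone the call of RRP4 was lost in both comparisons. CSL4 lies near the SSU72 locus and had no such test. The DIS3 strain lies 24 genes from RRP6 and was left out, with values of -1.66 and -0.60 in the RRP6 screens. LRP1 was not analysed here.

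TRAMP strains went both ways. TRF5, 1 of the poly(A) polymerases, stood at -1.22 and -1.20 (mean -1.21 ± 0.01, SD, n = 2; limma adjusted p = 0.00974). It was at -0.38 to 0.75 in the RAT1 and RNT1 screens, so the groups did not overlap, and it lies too near SSU72 for a test against the other TETO2 queries. In either screen alone it was not called (adjusted p = 0.119 in screen 1 and 0.13 in screen 2), nor with a replicate block (adjusted p = 0.0502). PAP2 (Trf4), the other polymerase, was called higher at 1.19 and 1.20 (mean 1.19 ± 0.01; limma adjusted p = 0.00747), but the 6 deletion-query arrays of the pool ran from 0.58 to 1.19. With the medians of arrays on the same kind of reference subtracted it was 0.55 (adjusted p = 0.433), and in either screen alone it was not called (adjusted p = 0.112 in screen 1 and 0.108 in screen 2). The helicase MTR4 stood at -1.21 and -0.71, short of the size required against 0, and was lower than in the other TETO2 queries by -1.28 (limma adjusted p = 3.09e-08), with its lowest mean of all queries. That difference fell short of the size required between the second screens alone (-0.95) and with a block for the reference pool (-0.98). AIR1 differed between screens, at -1.38 and 0.16, and AIR2 stood at 0.54 and -0.35, neither called.

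Among 8 other tested nucleases of RNA processing 1 was lower, or 12.5%, beside 9.59% of all strains. RNH70 (Rex1) trims the 3′ ends of the 5S ribosomal and transfer RNA precursors. Its strain stood at -5.44 and -2.64 in the RRP6 screens, against -0.43 to 0.90 in the other TETO2 screens, with no overlap. The mean was -4.04 ± 1.98 (SD, n = 2; limma adjusted p = 9.22e-28), the lowest of all queries. In the TRF5 query the same strain had a mean of -1.59 ± 0.70 (SD, n = 2) and was also called lower.

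Ribosome assembly factors made up a further group. Of 40 tested, 13 were lower and 1 higher, beside 9.59% and 1.99% of all strains, with a median of -0.41. Of 35 set against the other TETO2 queries, 12 were lower in RRP6, beside 3.95% of all strains, and none higher. RLP7, which binds the pre-rRNA next to the second internal spacer, stood at -5.22 and -2.58 in the RRP6 screens and from -0.97 to 0.36 in the other TETO2 screens. Its mean was -3.90 ± 1.87 (SD, n = 2; limma adjusted p = 5.43e-27). DBP7, a helicase of the early large-subunit precursor, was as low in RRP6, at -4.04 and -4.41, but also at -5.05 to -2.15 in the other TETO2 screens, and the difference was -0.51 (limma adjusted p = 0.814). The other strains of this list that are named by size were YTM1, at -4.05 and -2.56, and RPF2, at -3.99 and -2.10. YTM1 belongs to a complex that is stripped from the precursor by the Rea1 ATPase, and RPF2 helps to bring in the 5S particle. Both were lower than in the other TETO2 queries, by -2.98 and -3.40 (limma adjusted p = 1.71e-18 and 9.4e-19). The RRP6 means of YTM1 and RPF2 each ranked 2 from the lowest of all queries. On the deletion-query arrays of the screen 2 pool RPF2 had a median of 0.36 but a lowest value of -5.65.

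NOP53, which recruits the exosome to the large-subunit precursor by way of Mtr4, stood at -3.55 and -2.10 and was lower than in the other TETO2 queries by -2.93. RRP15, NOP2, NOG1, NOP16, CGR1, ALB1 and ESF1 were also lower in both comparisons, with RRP6 means from -2.62 to -1.73. Of the 13 lower strains 9 had their lowest mean of all queries in RRP6, beside 49 of all 371 lower strains: RLP7, NOP53 and these 7.

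Some ribosomal protein strains were lower too. Among large-subunit proteins 9 of 28 were lower, and among small-subunit proteins 5 of 14, beside 9.59% of all strains, with medians of -0.67 and -0.44. RPL26A stood at -4.001 and -2.28 in the RRP6 screens and RPL26B, its paralogue, at -4.78 and -2.02. In the other TETO2 screens they ran from -1.07 to 1.52 and from -2.89 to 1.36. Both were lower in RRP6 than in those queries, by -3.21 and -2.81 (limma adjusted p = 4.38e-15 and 3.11e-06). RPL40A, which encodes ubiquitin fused to a ribosomal protein, was lower still at -6.42 and -3.55, but it was also low in the other TETO2 screens, from -5.39 to -1.59. RPL2A stood at -3.95 and -2.53. Among small-subunit strains RPS29A stood at -4.87 and -1.37, RPS30B at -4.71 and -1.49 and RPS29B at -4.31 and -1.63. RPS21B, at -6.23 and -4.85 against -6.56 to -1.21 in the other TETO2 screens, overlapped in the same way. Of the 23 large-subunit strains set against the other TETO2 queries 5 were lower in RRP6, beside 3.95% of all strains. Of the 11 small-subunit strains none was.

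Messenger RNA packaging strains followed next. THO couples transcription to export through the helicase Sub2 and the adaptor Yra1. Of 16 tested strains of the THO and export list 5 were lower and 1 higher, beside 9.59% and 1.99% of all strains, with a median of -0.36. The THO subunit MFT1 stood at -7.46 and -5.58 in the RRP6 screens, against -4.02 and -4.90 in SSU72 and -0.37 to 0.72 in RAT1 and RNT1. The values of RRP6 lay below all others, with SSU72 next. The mean was -6.52 ± 1.33 (SD, n = 2; limma adjusted p = 5.76e-29), and the difference from the 3 queries was -5.19 (limma adjusted p = 2.28e-17). THP2, another THO subunit, was measured in screen 1 only, at -4.08.

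YRA1 stood at -4.70 and -2.33 in the RRP6 screens and from -2.74 to 0.48 in the other TETO2 screens, which overlapped. Its mean was -3.51 ± 1.67 (SD, n = 2; limma adjusted p = 3.1e-21), lower than in those queries by -2.58 (limma adjusted p = 1.54e-10). SUB2 stood at -3.62 and -1.53, within the range of -4.37 to -0.04 of the other TETO2 screens, and the difference was not called (0.01, limma adjusted p = 0.998). SEM1, a small protein of the proteasome lid and of the TREX-2 export complex, stood at -7.97 and -3.56, against -6.78 to -0.84 in those screens. ESC1, a protein of the nuclear periphery, stood at -4.44 and -2.42 (limma adjusted p = 3.2e-21). DBP5, the export helicase, was left out at 51 genes from RRP6 but stood at -6.19 and -5.70, far below the medians of -0.87 and -0.76 at that distance. The export strain that was higher, GLE1, stood at 0.36 and 2.10, and without screen 2 it was no longer called (0.36, adjusted p = 0.691).

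The rest of this list did not pass. MTR2, the partner of the export receptor, stood at -0.71 and -1.58, and the receptor MEX67 at -0.40 and -0.65. MLP1, a filament of the nuclear basket, stood at -0.94 and -1.04, just short of the size required. TEX1, HRB1, MLP2, NAB2, PML39, GFD1 and YRA2 lay between -0.72 and 0.77 in both screens, and TOM1 was measured in screen 2 only, at -0.96. Of 17 nucleoporins 1 was lower, NSP1 at -1.16 and -1.73, which is 5.88% beside 9.59% of all strains. Of 17 strains in transcription termination 1 was lower, the same share. It was SSU72 at -2.60 and -1.02, the phosphatase whose own TETO2 query is described below.

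In cytoplasmic decay the SKI complex stood out by its size. It feeds messenger RNA into the cytoplasmic exosome. Of 4 tested strains of this list the 3 subunits were lower, beside 9.59% of all strains. SKI2 stood at -4.48 and -1.39, SKI3 at -4.69 and -0.97 and SKI8 at -4.57 and -1.999. In the other TETO2 screens SKI2 and SKI3 ran from -1.13 to 0.94 and SKI8 from -2.89 to 0.78. All 3 were lower in RRP6 than in those queries, as were 3.95% of all strains tested there. The differences were -3.08, -2.75 and -2.60 (limma adjusted p from 7.92e-05 to 0.00117). The calls against 0 rest on screen 1: in screen 2 alone the adjusted p was 0.368 for SKI2, 0.582 for SKI3 and 0.0929 for SKI8.

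Nonsense-mediated decay destroys messages with early stop codons. Of its 5 strains 3 were lower, beside 9.59% of all strains. NMD2 stood at -3.90 and -1.17, UPF3 at -3.58 and -1.19 and NAM7 (Upf1) at -2.63 and -0.70. None of the 5 was called against the other TETO2 queries. In screen 2 alone NMD2, UPF3 and NAM7 were not called. None of 9 decapping and Lsm strains was lower. Of 6 deadenylase strains 2 were, beside the same 9.59%: PAN2 at -1.79 and -0.68 and CAF130 at -1.31 and -1.19. Other lists with no lower strain were splicing (20 tested), karyopherins (8), mitochondrial ribosomal proteins (32) and peroxisome biogenesis (22). The strains furthest from 0 in these lists, none of them called, were EDC3 at 2.37 and -0.02, MUD2 at -1.14 and -0.75, LOS1 at 1.38 and 1.19, RSM23 at 2.10 and 0.05 and PEX10 at -1.11 and -0.99. Yet 5 of 21 peroxisome strains were lower in RRP6 than in the other TETO2 queries, whose median there was 0.42, beside 3.95% of all strains.

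**Figure D3:**
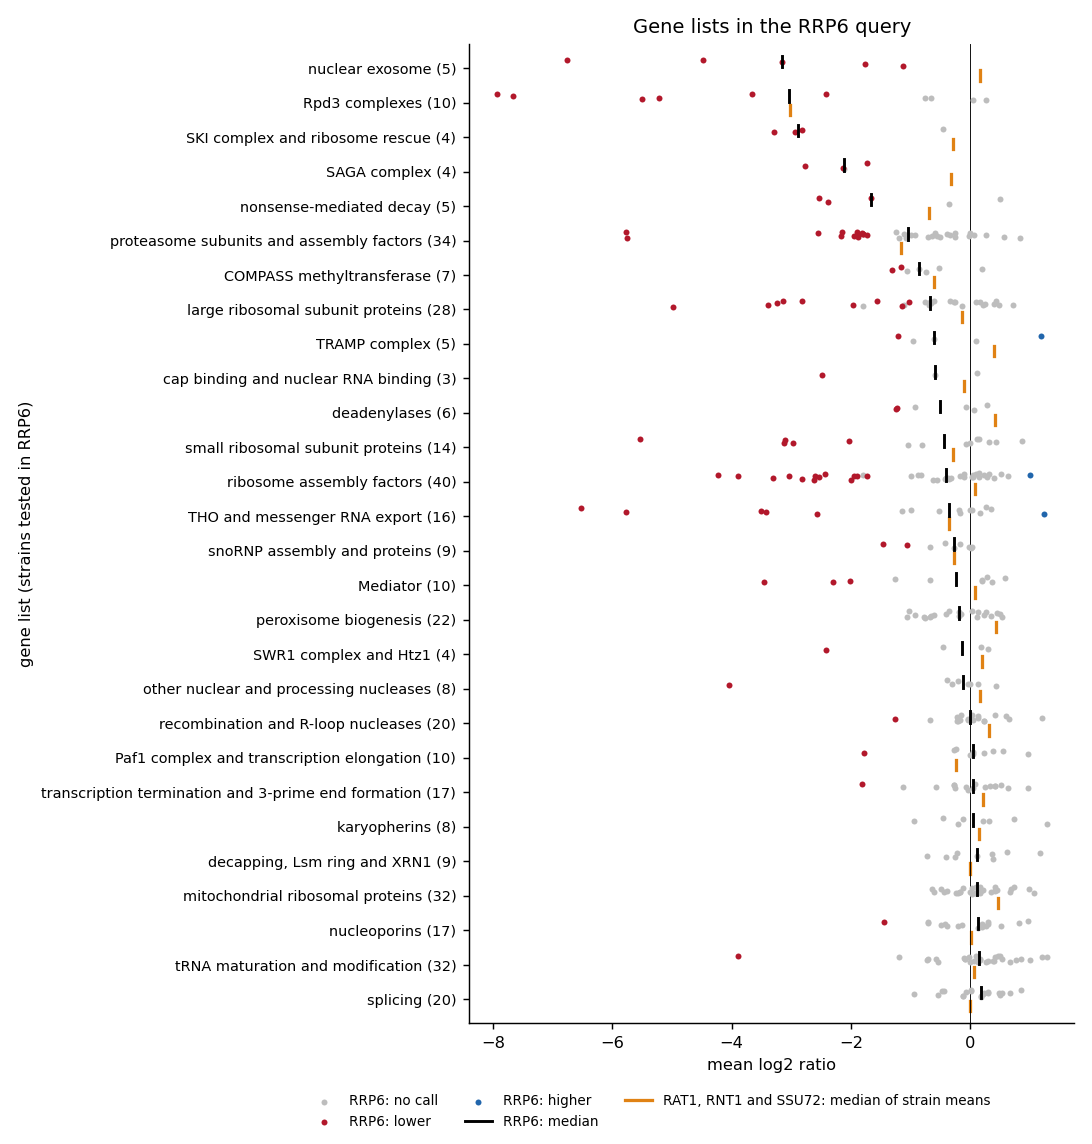
Mean log2 ratio in the RRP6 query of every tested strain of the gene lists (1 list a row, number tested in brackets), coloured by call, with the RRP6 median as a black bar and the median of the strain means in RAT1, RNT1 and SSU72 as an orange bar. The nuclear exosome row lies wholly below 0 in RRP6 with the orange bar at 0.16, whereas in the Rpd3 row the 2 bars coincide near -3.

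Other groups were as low in RRP6 but were low in other queries too. In the Rpd3 list, a histone deacetylase and its partners, 6 of 10 strains were lower, beside 9.59% of all strains. The median was -3.03 in RRP6 and -3.02 in the other TETO2 queries. SAP30 stood at -7.69 and -8.19 in the RRP6 screens and SDS3 at -6.20 and -9.12, the lowest 2 means of the query at -7.94 ± 0.35 and -7.66 ± 2.07 (SD, n = 2 each). In the RAT1 and SSU72 screens SAP30 ran from -9.72 to -4.71, and in all 6 other TETO2 screens SDS3 from -10.09 to -3.67. None of 8 strains was lower than in those queries and 1 was higher, beside 3.95% and 1.32% of all strains. The higher strain was PHO23, by 2.44 (limma adjusted p = 0.0128). PHO23 stood at -5.32 and -5.11 in the RRP6 screens, above its range of -8.78 to -5.85 in the others. RXT2, at -6.30 and -4.72, was not called against them (1.96, limma adjusted p = 0.0654). Over all queries SAP30 was called lower in 20, SDS3 in 19, PHO23 in 22 and RXT2 in 23, and SAP30 had its lowest mean, -8.06, in the RPN4 deletion query.

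Among proteasome strains the calls were spread likewise. In RRP6 13 of 34 were lower, beside 9.59% of all strains. Against the other TETO2 queries none of 29 was lower and 1 was higher, beside 3.95% and 1.32% of all strains. RPN4, the transcription factor of proteasome genes, stood at -5.80 and -5.70 in the RRP6 screens and from -7.88 to -3.90 in the other TETO2 screens, and was called lower in 21 queries. The higher strain was UBP6, a deubiquitinase of the proteasome, at -4.26 and 0.35 in the RRP6 screens against -7.53 to -4.69 in the others. Its 2 RRP6 values differ in sign. RPT6, at -3.95 and -1.15, and RPN6, at -3.48 and -0.85, overlapped with the other TETO2 screens, at -5.46 to -1.43 and -6.22 to -0.54.

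On the 6 deletion-query arrays of the screen 2 pool the medians of SAP30, SDS3, PHO23, RXT2 and RPN4 were between -0.33 and 0.55, with single arrays as low as -3.39. Over the 308 lower strains with a value in all 3 other TETO2 queries the median was -2.28 in RRP6 and -1.26 in those queries. Over all 371 it was 0.36 on the same-pool deletion arrays and -0.14 in the mean of the other queries. The 4 TETO2 queries share the kind of allele, a part in RNA processing and, in their second screens, a reference pool. In deletion queries of RNA processing genes SAP30 was not called. Its means were 0.87 ± 0.49 in TRF5, 1.17 ± 1.25 in RAI1, 0.64 ± 1.34 in REX2 and 0.55 ± 3.58 in REX3 (SD, n = 2 each). The 2 REX3 screens thus lay far apart. What sets these queries apart from the TETO2 queries was not tested.

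Chromatin and transcription lists held smaller groups. Of 4 SAGA strains 3 were lower, beside 9.59% of all strains: CHD1 at -4.07 and -1.46, UBP8 at -3.10 and -1.17 and SGF11 at -2.36 and -1.09. CHD1, a chromatin remodeller, and SGF11, of the deubiquitinating module, were also lower than in the other TETO2 queries, by -2.44 and -2.21. For CHD1 the difference between the second screens was 0.03. Of 10 Mediator strains 3 were lower, beside the same 9.59% of all strains. SSN2 (Med13), of the kinase module, stood at -2.10 and -1.92 in the RRP6 screens against -0.51 to 2.42 in the other TETO2 screens, a difference of -3.17 (limma adjusted p = 1.65e-07). Its mean over the other TETO2 queries was 1.16. On the deletion-query arrays of the screen 2 pool its median was -0.91 and its lowest value -1.44. The RRP6 mean of SSN2 ranked 4 from the lowest of all queries. MED4, at -2.80 and -4.12, and MED8, at -3.82 and -0.78, overlapped with the other TETO2 screens. Of 7 COMPASS strains 2 were lower against 0, beside 9.59% of all strains. Against the other TETO2 queries 2 of 6 were lower and 1 higher, beside 3.95% and 1.32% of all strains. The higher strain was SPP1, by 1.65 (limma adjusted p = 0.000156). Lower against 0 were SWD3 at -2.16 and -0.46 and BRE2 at -1.89 and -0.45. Of 4 SWR1 strains 1 was lower, SWC3 at -3.16 and -1.68, beside 9.59% of all strains. In screen 2 alone these 3 were not called (limma adjusted p = 0.789, 0.808 and 0.224), nor were CHD1, UBP8, SGF11 and MED8.

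In 4 other lists a single strain was lower, or 3.12% to 33.3% of those tested, beside 9.59% of all strains. PBP1, a Pab1-binding protein, stood at -3.46 and -1.53, and NCL1, a transfer RNA methyltransferase, at -4.81 and -2.98. NHP6A, a DNA-bending protein, stood at -2.32 and -1.24, and MMS4, of a recombination nuclease, at -1.59 and -0.95. Of 9 tested strains for proteins and assembly of small nucleolar RNA particles 2 were lower, beside 9.59% of all strains. They were the box H/ACA proteins NHP2, at -2.16 and -0.77, and CBF5, at -0.85 and -1.26. None of these 6 strains was called against the other TETO2 queries.

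**Figure D4:**
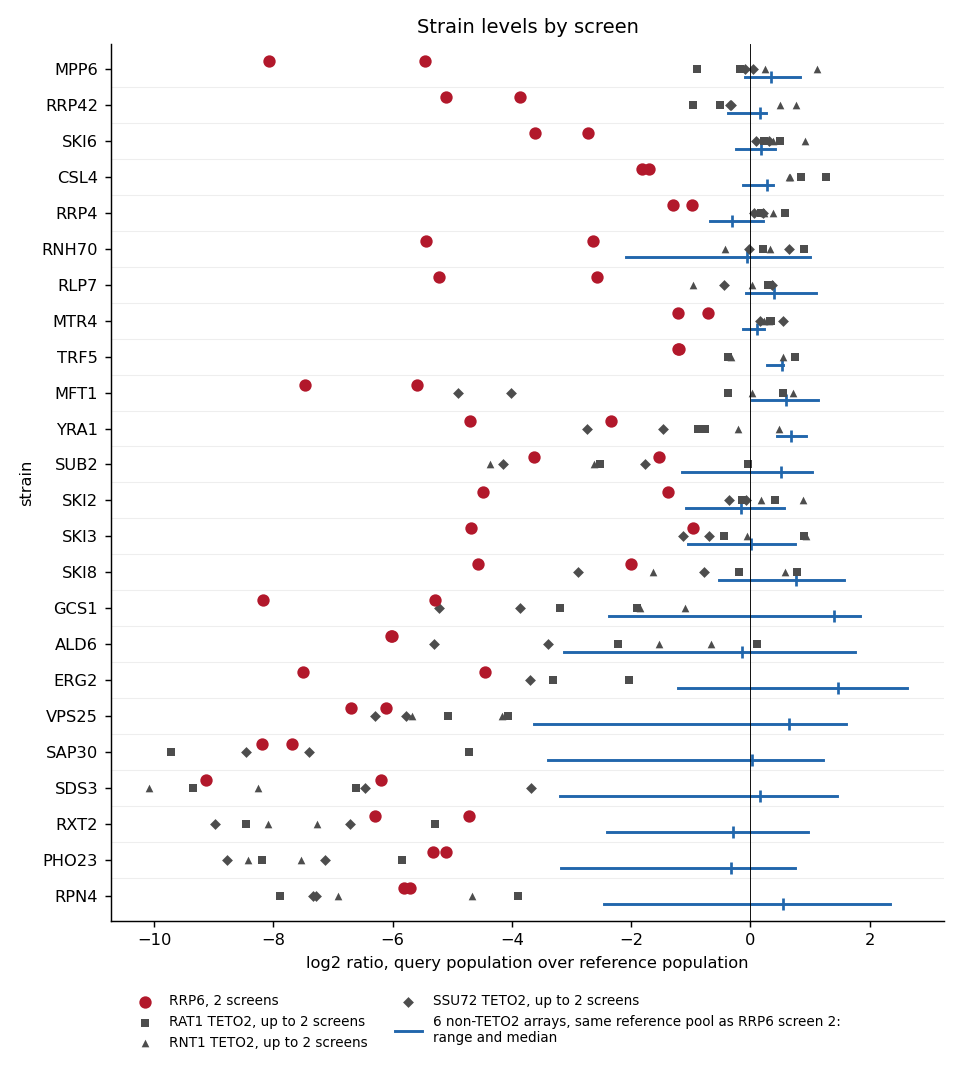
Log2 ratio of 24 strains (rows) in the 2 RRP6 screens (red circles), in the screens of the RAT1 (squares), RNT1 (triangles) and SSU72 (diamonds) TETO2 queries, and on the 6 deletion-query arrays of the screen 2 pool (blue line from lowest to highest, tick at the median). For MPP6, RRP42, SKI6, RNH70 and RLP7 the red circles stand apart on the left, whereas for SAP30, SDS3, RXT2, PHO23 and RPN4 they lie among or above the other TETO2 screens.

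Of the 308 lower strains that could be set against the other TETO2 queries, 94 were lower in RRP6, 5 were higher and 67.9% were called in neither direction. In all, 3.95% of 3418 strains were lower in RRP6 and 45 strains, or 1.32%, were higher. Within the shared pool of the second screens 97.04% of the lower strains were below 0 and 72.6% reached -1. The median difference was -1.503 there, beside -2.05 in the full comparison. These strains were called in part on the same second screens, so those shares are not separate support. The 5 strains furthest below were MPP6, MFT1, SUB1, RRP42 and RNH70. SUB1, a transcription coactivator, differed from the rest: it stood at -4.32 and -0.10 in the RRP6 screens and from -0.86 to 4.30 in the others, and by the second screens alone it was not called (-1.53, adjusted p = 0.683). On the deletion-query arrays of that pool SUB1 had a median of -1.19 and a lowest value of -1.56.

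Of the 12 lowest strains 8 were in none of these lists, and 3 of those were also lower than in the other TETO2 queries. GCS1, which activates the GTPase of Golgi vesicles, stood at -8.18 and -5.29 in the RRP6 screens against -5.23 to -1.09 in the others (difference -3.88, limma adjusted p = 3.97e-05). ALD6, the cytosolic acetaldehyde dehydrogenase, stood at -6.01 and -6.02, against -5.30 to 0.11 in the others (difference -3.84, limma adjusted p = 0.00144). For both the groups of screens did not overlap, narrowly so for GCS1. VPS24, a subunit of the ESCRT machinery that sorts membrane proteins, stood at -8.34 and -3.68 in the RRP6 screens against -3.996 to -1.70 in the others, which overlapped (difference -3.09, limma adjusted p = 1.25e-05). Between the second screens alone none of these 3 differences was called, at -3.003 for GCS1, -4.07 for ALD6 and -0.89 for VPS24 (limma adjusted p = 0.0919, 0.053 and 0.786). GCS1 was called lower in 22 queries and ALD6 in 19. ERG2, a sterol isomerase, stood at -7.51 and -4.46 and had its lowest mean of all queries in RRP6.

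**Figure D5:**
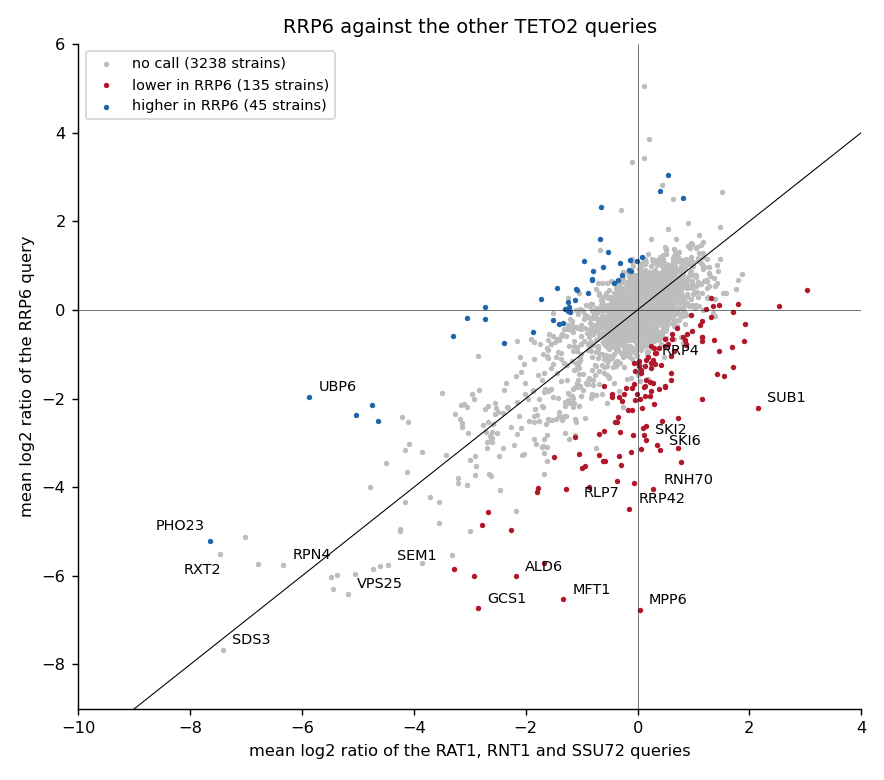
Mean log2 ratio of each strain in the RRP6 query (vertical axis) against its mean over the RAT1, RNT1 and SSU72 queries (horizontal axis), coloured by the call for the difference, with the line of equal values. MPP6, RRP42, RNH70, RLP7 and SKI6 fall below the line at a horizontal value near 0, while SDS3, RPN4, VPS25 and SEM1 lie near it.

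Strains higher than in the other TETO2 queries were led by UBP6 and by strains that were near 0 in RRP6 and low in the others. GGA1, a sorting adaptor, stood at -0.38 and 0.02 in the RRP6 screens and from -10.54 to -0.34 in the others. YOS9, a lectin of protein quality control, stood at -0.82 and -0.34, against -9.62 to -0.70. In both strains the low end came from 1 screen of RAT1, and with the RAT1 query left out neither was called (1.29 and 1.25, limma adjusted p = 0.51 and 0.358). NPR2, of a TORC1 inhibitor, stood at 0.06 and 0.09 against -4.97 to -0.72. PRB1, a vacuolar protease, stood at 4.26 and 0.37 in the RRP6 screens against -1.09 to -0.34 in the others. PRB1 and NPR2 lie within 25 genes of YEL068C, described below. Between the second screens, whose reference was not that deletion, neither was called (0.86 and 2.20, limma adjusted p = 0.925 and 0.248).

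Against all other queries, 375 of 3870 strains were lower in RRP6 (9.69%) and 65 higher (1.68%). Of the 371 strains lower against 0, 354 were lower in this comparison too, and 49 had their lowest mean of all queries in RRP6. Over the 371 the mean of the other queries had a median of -0.14, so this comparison largely repeats that against 0. The following 11 of the 371 were called lower in no other query: MPP6, SKI6, RRP15, NOP2, MAK11, EBP2, NOG1, RRP17, ARH1, PMA2 and MRS3, in the order of their RRP6 means, from -6.77 to -1.10. Some came near the size required elsewhere: NOG1 at -0.999975 and NOP2 at -0.97 in TRF5, and SKI6 at -0.92 in ESC1. Between the second screens of the TETO2 queries ARH1 and MRS3 differed by -0.060 and -0.058. MAK11, EBP2 and RRP17 act in ribosome assembly, as do RRP15, NOP2 and NOG1 from the list above.

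Higher strains were fewer. Of the 77, 73 were above 0 in both screens, 55 reached 0.5 in both and 16 reached 1 in both. The highest were YEL067C at 9.59 and 0.53, SIT1 at 6.96 and 0.74 and CAN1 at 5.06 and 0.58. These 3 lie within 5 genes of YEL068C, whose strain stood at 4.23 and 0.79. Strains up to 5 genes from that locus had a median of 6.28 in screen 1, whose reference carried the deletion, and 0.58 in screen 2. In all 8 higher strains lay within 25 genes of it, and AFG1, at 2.11 and 1.07, was another of the 12 highest. The other 69 lay elsewhere.

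Away from that locus the highest strains were KGD2, of the citric acid cycle, at 4.33 and 1.00, YDR476C, an uncharacterised gene, at 1.17 and 3.88, and PPH21, a catalytic subunit of protein phosphatase 2A, at 3.18 and 0.73. TRX1, a thioredoxin, stood at 1.12 and 2.63, ASA1, a subunit of the ASTRA complex, at 1.20 and 2.50, HSL1, a cell-cycle kinase, at 2.16 and 1.51, and NCE102, a membrane-domain protein, at 2.75 and 0.64. Of these 7 strains YDR476C was also higher than in the other TETO2 queries, by 1.71 (limma adjusted p = 7.35e-05), and 5 were not called. ASA1 was not tested there. TRX1 reached 2.61, 2.36 and 1.79 in the second screens of the other TETO2 queries.

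The profile of RRP6 across strains was most like that of SSU72. Screens of SSU72 and RRP6 that did not share a reference pool correlated with a mean r of 0.619, beside 0.602 between the 2 RRP6 screens. The same measure was 0.593 for RPN4, 0.584 for NPR3, 0.566 for UBP6, 0.536 for SEM1 and 0.522 for OCA5, all deletion queries, beside a median of 0.05 over all queries compared. It was 0.474 for RNT1 and 0.438 for RAT1, 0.293 for REX3, 0.174 for RAI1 and 0.155 for REX2. TRF5 and PCF11 were below 0, at -0.09 and -0.11. These values describe 3292 to 3792 strains that share arrays and barcodes, and carry no test.

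From the other side, the RRP6 strain was lower in 6 queries and higher in 7. Its lowest mean was in SSU72, at -4.11 ± 1.28 (SD, n = 2), followed by NAM7 at -2.58 and RAI1 at -2.52 ± 0.99. It was also lower in TRF5, at -1.69 ± 1.18, and in REX3, at -1.69 ± 0.47. It was not called in RNT1 (-1.23 ± 0.76), REX2 (0.00 ± 0.64) or PCF11 (-0.12 ± 0.73), and RAT1 lies too near for a test. The pair of SSU72 and RRP6 was therefore called lower in both directions, as was that of TRF5 and RRP6, with the limits given above for the TRF5 strain. MPP6, in contrast, stood between -0.54 and 0.68 in the RAT1, RNT1, SSU72, TRF5, RAI1, REX2, REX3 and PCF11 queries and at 0.83 in the single AIR2 screen, called in none of those tested.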

How the data were processed

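Barcodes of pooled double mutants were measured on 2-colour tag arrays. The deposited values are log ratios of query over reference for each feature, taken here as log2. No label or header states their base, normalization, centring, sign, software or genome build. No intensities were used.

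Features with values on at least 80% of the arrays (8632 of 15744) were averaged by gene symbol into 4125 strains, and 2660 features without a symbol were left out. Names and gene order came from RefSeq (5098 of 5100 symbols matched, 64 updated). Arrays were centred on their median. An array was turned in sign where the median over strains up to 25 genes from its query was positive (17 arrays, none of RRP6), and strains within 100 genes of a query were left out.

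A linear model in limma 3.58.1 (with R 4.3.3 and the data.table package, version 1.17.8) gave 1 mean per query over all screens with a moderated variance per strain. Benjamini-Hochberg adjustment covered all 547925 pairs with at least 2 screens, and for a contrast all strains tested in it. Strains were called at an adjusted p below 0.05 with a difference of 1 or more on the log2 scale. Contrasts set RRP6 against 0, against the mean of the RAT1, RNT1 and SSU72 queries, and against the mean of all other queries with at least 2 screens. The procedure was tested on simulated data drawn with 1 spread per strain for all queries. That test could not show what an unequal spread between queries would do. Figures were drawn with Python 3.11.15 and matplotlib 3.10.9.

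Strains were named by rule: the 12 lowest and 12 highest called strains of at least 0.5 in size and 1 sign in both screens, every measured strain of the exosome, TRAMP and export lists, up to 4 called strains of every other list (or the furthest from 0), and the 5 furthest in each direction against the other TETO2 queries. Strains called lower in no other query, further strains of the ribosome assembly list, SPP1 and neighbours of named strains were named after their values were seen. The query, the gene lists and the tests were chosen with earlier results of these data known. The alternatives covered sign, normalization, scaling, feature filter, each screen left out, blocks for replicate number, pool and kind of reference, the size required, the adjustment, the linked window and the queries compared.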

Additional observations from a re-analysis of the deposited data

Results flagged for a closer look

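For 32 named strains the effect in RRP6 differed from that in the other TETO2 queries by the test of the difference itself (limma, adjusted p under 0.05 and a size of at least 1). Values below are differences of RRP6 minus the mean of RAT1, RNT1 and SSU72.

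Strains of RNA surveillance and processing made up the first set. MPP6 had a difference of -6.80, RRP42 of -4.34, SKI6 of -3.56, RRP4 of -1.41, MTR4 of -1.28 and RNH70 of -4.32. In export, MFT1 had -5.19 and YRA1 -2.58. In cytoplasmic decay, SKI2 had -3.08, SKI3 -2.75, SKI8 -2.60 and PAN2 -1.66. Between the second screens alone, which share a reference pool, the sign was the same in all 12. Those screens also entered the calls, so the shared sign is not separate support.

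In ribosome biogenesis RLP7 had a difference of -3.83, RPF2 of -3.40, YTM1 of -2.98, RPL26A of -3.21 and RPL26B of -2.81, with second-screen differences from -3.13 to -2.37. Chromatin and transcription strains followed, SSN2 at -3.17, CHD1 at -2.44, SGF11 at -2.21, SWD3 at -1.55 and SUB1 at -4.36. For SWD3 and SUB1 the second screens alone gave -0.55 and -1.53, and for CHD1 0.03. In membrane traffic and metabolism GCS1 had -3.88, VPS24 -3.09 and ALD6 -3.84. For VPS24 the second screens gave -0.89.

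In 7 strains the difference was positive. UBP6 had 3.91, PRB1 2.96, GGA1 2.86, NPR2 2.80, YOS9 2.72, PHO23 2.44 and YDR476C 1.71. GGA1 and YOS9 had means of -0.18 and -0.58 in RRP6, and the first RAT1 screen stood at -10.54 and -9.62, far below the other 5 screens of those queries. PRB1 and NPR2 lie 8 and 6 genes from YEL068C, the deletion in the reference of RRP6 screen 1. With RAT1 left out, GGA1 and YOS9 were not called (1.29 and 1.25, limma adjusted p = 0.51 and 0.358), nor were NPR2 and PRB1 (2.18 and 2.93, adjusted p = 0.0526 and 0.0547). Between the second screens alone PRB1 and NPR2 were not called (0.86 and 2.20, adjusted p = 0.925 and 0.248).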

How the results depend on the processing

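Values are the percent of tested strains called lower and higher against 0, then against the other TETO2 queries, then against all other queries, reported as 9.59 and 1.99, 3.95 and 1.32, and 9.69 and 1.68. Quantile normalization gave 2.17 and 0.594, 0.614 and 0.176, and 1.83 and 0.439. Scaling arrays to 1 median absolute deviation gave 5.63 and 0.31, 1.43 and 0.205, and 4.99 and 0.233. Leaving out a screen of RRP6 gave 4.1 to 10.4 and 1.88 to 3.04, 2.02 to 6.73 and 1.61 to 2.34, and 3.77 to 11.9 and 1.03 to 4.28, each time lowest without screen 1. The strains called also changed in those fits, which rest RRP6 on a single screen. Without screen 1 most of the reported strains were not among those called, in all 3 comparisons and both directions. With either screen left out, most strains called higher were not among those reported. Without a filter on features 3.12 were higher against 0. A size of 0.5 gave 3.95, 2.17 and 4.42 higher. The 2 RRP6 screens alone gave 0 and 0. Against the other TETO2 queries, leaving out RAT1 gave 0.772 higher, leaving out SSU72 gave 6.7 lower and 2.55 higher, and the second screens alone gave 1.88 lower. The omitted queries, the second screens alone, the strains near YEL068C and the medians by kind of reference were chosen after seeing the data. The cause of these shifts was not tested.

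All other alternatives run moved the number of calls by less than 1.5 times. A block for the reference pool gave 2.94 lower and 1.82 higher against the other TETO2 queries, with 65 and 22 of the reported strains among them, and RRP6 then rests on screen 2. GGA1, MTR4, PRB1, RRP4, SUB1, VPS24 and YOS9 lost their call under it. That block could not be fitted for the other comparisons. Of the named strains, 41 lost their call against 0 under quantile normalization, 23 under scaling, 37 without screen 1 and 10 without screen 2. Those without screen 1 include RRP4, TRF5, SKI2, SKI3, SKI8, NMD2, UPF3, NAM7, SUB2, UBP8, CHD1, SGF11, RPT6, RPN6 and 9 of the 12 highest strains. UBP6 changed sign, at 0.35 without screen 1 (limma adjusted p = 0.946) and -4.26 without screen 2. MPP6, RRP42, SKI6, RNH70, RLP7, MFT1, SAP30 and SDS3 kept their call with either screen left out. Against the other TETO2 queries RRP4, GCS1, VPS24, SUB1, GGA1 and PRB1 lost their call without screen 1, and GGA1 and UBP6 without screen 2.

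Replicate numbers give only the order of the screens. Deviations of same-numbered screens correlated at 0.273 with RAT1, 0.293 with RNT1 and 0.299 with SSU72, beside a median of 0.0572 over the queries. A replicate block gave 9.25 and 1.76, 4.04 and 1.55, and 9.74 and 1.73, and CAF130, NAM7, NSP1, TRF5 and YEL067C lost their call against 0.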

Other observations

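A group of strains outside the gene lists was depleted as well. These strains were chosen after their values were seen and carry no test as a group. ESCRT complexes sort ubiquitinated membrane proteins into vesicles of the endosome. Of 16 tested ESCRT strains 15 were lower in RRP6, beside 9.59% of all strains, with a median of -4.88 in RRP6, -3.36 in the other TETO2 queries, 0.62 on the deletion-query arrays of the screen 2 pool and -0.71 in the mean of all other queries. VPS25 stood at -6.69 and -6.11, VPS20 at -6.53 and -6.06 and SNF8 at -7.00 and -4.97, all 3 close to their means in the other TETO2 queries of -5.17, -5.44 and -5.37. Of the 16 strains 6 were lower in RRP6 than in those queries, beside 3.95% of all strains. Among the 6 was VPS4, the ATPase that takes the complexes apart, by -2.56. These strains were called lower in many queries, with VPS25 and VPS4 at 31 each and VPS24 at 30. MVB12 was not called, at -1.73 and 0.32.

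Retromer and GARP return proteins to the Golgi, and VPS9 activates an endosomal GTPase. Of 4 tested retromer and GARP strains 4 were lower, beside 9.59% of all strains, with a median of -3.75. VPS52 of GARP stood at -6.78 and -4.64, and VPS35 of retromer at -5.00 and -3.03. VPS9 stood at -6.01 and -6.03. ALD6 lies next to YPL062W, whose strain was also lower, at -6.04 and -5.39, so the 2 neighbouring strains cannot be told apart by their values. Other named strains also had a lower neighbour. Means were -1.42 for RRP17 and -2.16 for ERD1, -1.89 for ALB1 and -2.22 for RPE1, and -2.21 for SUB1 and -2.82 for CCS1. They were -3.28 for SKI8 and -1.38 for CLG1, -2.17 for RPN6 and -1.42 for PMT1, and -1.78 for NHP6A and -1.65 for YPR053C.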
